A study of Rattus norvegicus with 2 samples.

Results

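The genes described here encode inhibitors of cyclin-dependent kinases (CDKs), the enzymes that drive a cell through its division cycle. They were chosen by symbol and not by their values: 8 symbols were listed, and 7 of them (Cdkn1a, Cdkn1b, Cdkn1c, Cdkn2a, Cdkn2b, Cdkn2c and Cdkn3) were found among the 25399 genes of the deposited table. Cdkn2d was not analysed here. Proteins of the Cip/Kip family, p21 (Cdkn1a), p27 (Cdkn1b) and p57 (Cdkn1c), bind cyclin-CDK complexes and restrain mainly CDK2. Proteins of the INK4 family, p16 (Cdkn2a), p15 (Cdkn2b) and p18 (Cdkn2c), bind CDK4 and CDK6 and keep cyclin D from activating them, so that the RB protein stays active and holds back entry into S phase. Cdkn3 encodes a phosphatase that removes the activating phosphate of CDK2 and CDK1, and its transcript is known to accumulate late in the cycle. In neural stem cells these inhibitors set the balance between division, quiescence and differentiation.

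The cells were primary cortical neural stem cells of E14.5 Sprague-Dawley rat embryos. The treated culture received 30 µM ZD7288, a blocker of HCN channels (hyperpolarisation-activated cation channels), in DMSO at 0.2%. The sample label of this culture spells the compound ZD2788. The control culture received the vehicle alone, and both grew for 48 h in complete medium with FGF2, which holds off differentiation, with medium and compound replaced at 24 h. Each condition was 1 culture and 1 library of single-cell RNA sequencing (10x Chromium 3′ kit, version 2), so treatment, culture and library cannot be told apart, no test between conditions was possible, and every interval below covers counting error only.

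After filtering, the ZD7288 library held 3135 cells with a median of 23001 UMIs (unique molecular identifiers, 1 per captured transcript molecule), and the vehicle library held 732 cells with a median of 17119. The match of barcodes to libraries rests on the suffix number each barcode carries; 3 barcode sequences occurred in both libraries. Neural stem cell markers were present, with Sox2 at 247 and 230 CPM (counts per 1000000 UMIs) and Vim at 4690 and 4204 CPM in ZD7288 and vehicle cells. The 14 listed markers were not uniform, and Hes5 was nearly absent, at 0.0407 and 0.256 CPM. Notch1 (19.7 and 47.3 CPM) and Sox9 (78.2 and 138 CPM) were lower in ZD7288 cells, and Slc1a3 (294 and 186 CPM) was higher. Olig1 and Olig2, transcription factors of the oligodendrocyte lineage, were also abundant, at 896 and 268 CPM in ZD7288 cells against 1687 and 432 CPM in vehicle cells. Among other oligodendrocyte precursor markers, Cnp had 67.6 and 142 CPM in ZD7288 and vehicle cells. Pdgfra (0.109 and 1.41 CPM) and Sox10 (0.136 and 0.192 CPM) were nearly absent, and Gpr17 was at 0 in both libraries. All 7 microglia markers were at 0 in the vehicle library and summed to 0.0543 CPM in the ZD7288 library. The mesenchymal list, which covers pericytes and fibroblasts too, summed to 16.3 CPM in the ZD7288 library and 0.705 CPM in the vehicle library, where 7 of 9 were at 0. No cell type that should lack the inhibitor genes was found, so the part of free RNA in their counts was not tested.

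Among the inhibitors, Cdkn2b and Cdkn1a were higher in the ZD7288 library, Cdkn1c, Cdkn2c and Cdkn3 were lower, and Cdkn1b lay near parity. Of the 7 genes, 3 passed 1.5-fold on the higher side (Cdkn1a, Cdkn2a and Cdkn2b) and 1 on the lower side (Cdkn1c). A level of 20 CPM in the higher library counted as measured, which 5 of the 7 reached; of these 5, 2 were higher (Cdkn1a and Cdkn2b) and 0 lower. Among all 4823 measured genes 10.1% passed 1.5-fold on the higher side and 5.2% on the lower side; from 5 CPM upward these shares were 10.7% and 8.06% of 7589 genes. With libraries scaled so that the median measured gene had a ratio of 1, 352 measured genes were higher and 357 lower, against 485 and 251, and Cdkn2a no longer reached 1.5-fold.

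Cdkn2b, which encodes p15 and is a classic target of TGF-beta signalling, had 4663 UMIs in the ZD7288 library and 91 in the vehicle library. Its level was 63.3 CPM (95% interval 61.5 to 65.1) in ZD7288 cells and 5.83 CPM (4.69 to 7.16) in vehicle cells, a ratio of 10.9 (8.82 to 13.5). A Cdkn2b UMI was seen in 52.1% of ZD7288 cells and 9.70% of vehicle cells, and with every cell thinned to 2000 UMIs in 10.4% (9.31 to 11.5) against 1.66% (0.859 to 2.88). A larger share of cells with a UMI does not tell more expressing cells from more transcript per cell. Between 6 and 10 UMIs were held by 5.96% of ZD7288 cells and 0.137% of vehicle cells, and the highest cell had 27 UMIs in the ZD7288 library and 6 in the vehicle library. At 2000 UMIs per cell the ratio rested on 14 vehicle UMIs and was 6.09 (3.58 to 11.3).

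Cdkn2a, the neighbouring INK4 gene in mammals, stood much closer to parity. It had 1324 and 185 UMIs, or 18.0 CPM (17.0 to 19.0) in ZD7288 cells and 11.9 CPM (10.2 to 13.7) in vehicle cells, a ratio of 1.52 (1.30 to 1.78). The 3′ counts do not separate the transcripts for p16 and for ARF, which share their last exons. Thinned to 2000 UMIs per cell the ratio was 0.999 (0.645 to 1.60) over 26 vehicle UMIs and thinned to 5000 it was 2.51 (1.68 to 3.92), also over 26, so the size of the difference was not resolved at this depth.

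Cdkn1a, which encodes p21, the best known p53 target among the inhibitors, had 14423 UMIs in the ZD7288 library and 881 in the vehicle library. The levels were 196 CPM (193 to 199) in ZD7288 cells and 56.4 CPM (52.8 to 60.3) in vehicle cells, a ratio of 3.47 (3.24 to 3.72). A UMI was found in 84.0% of ZD7288 cells and 39.8% of vehicle cells, and at 2000 UMIs per cell in 29.8% (28.1 to 31.5) against 9.12% (7.12 to 11.5). The vehicle UMIs were unevenly held: 14 vehicle cells had more than 10 UMIs each and together carried 28.8% of all vehicle Cdkn1a UMIs. In the ZD7288 library 290 cells had more than 10 UMIs and carried 37.6%. Without the 10 highest cells of each library the levels were 188 CPM in ZD7288 cells and 44.1 CPM in vehicle cells. The variance of UMIs per cell at equal depth, divided by the mean, was 1.35 in ZD7288 cells and 1.92 in vehicle cells, where random sampling alone gives about 1.

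Cdkn1b, which encodes p27, a protein regulated largely by its turnover, had 26.7 CPM (25.5 to 27.9) in ZD7288 cells and 23.2 CPM (20.9 to 25.7) in vehicle cells. Its ratio was 1.15 (1.03 to 1.29). At equal depth the variance over mean of its UMIs per cell was 0.994 in ZD7288 cells and 1.03 in vehicle cells. The mean at that depth was only 0.0484 UMIs per ZD7288 cell and 0.0387 per vehicle cell, too few to show moderate differences between cells. These values thus do not show that cells were alike in Cdkn1b, which differed with mitotic transcripts as given below.

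Cdkn1c, which encodes p57, a regulator of stem cell quiescence, was the inhibitor with the smallest ratio. It had 330 and 182 UMIs, or 4.48 CPM (4.01 to 4.99) in ZD7288 cells and 11.7 CPM (10.0 to 13.5) in vehicle cells, and was 2.60-fold lower (2.16 to 3.13). A UMI was seen in 6.38% of ZD7288 cells and 18.2% of vehicle cells. In the ZD7288 library 10 cells held 34.2% of the Cdkn1c UMIs, up to 35 in a cell, whereas in the vehicle library the highest cell had 5. Of those 10 ZD7288 cells, 6 also had UMIs of the mesenchymal markers, 508 in all. Cells with at least 1 mesenchymal marker UMI, 338 in the ZD7288 library and 9 in the vehicle library, had 13.4 CPM of Cdkn1c in the ZD7288 library. Without them Cdkn1c stood at 3.19 CPM in ZD7288 cells and 11.6 CPM in vehicle cells, a log2 ratio of -1.86, against -1.38 with all cells. Cdkn1c was thus lower in the ZD7288 library with these cells in or out. Leaving them out moved the other inhibitors little, Cdkn2b having a log2 ratio of 3.42 without them and 3.44 with them, and Cdkn1a 1.77 and 1.79.

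Cdkn2c and Cdkn3 were lower in the ZD7288 library by less than 1.5-fold over all UMIs. Cdkn2c, which encodes p18, an INK4 protein of dividing progenitors, had 50.9 CPM (49.3 to 52.6) in ZD7288 cells and 70.5 CPM (66.4 to 74.8) in vehicle cells, a ratio of 0.722 (0.675 to 0.772). Thinned to 2000 UMIs per cell its ratio was 0.850 (0.666 to 1.095), an interval that includes parity. Thinned to 5000 UMIs per cell, a depth chosen after seeing the data, it passed the size rule, at 1.54-fold lower (1.32 to 1.78). The size of the Cdkn2c difference thus changed with depth. For Cdkn3 the levels were 159 CPM (156 to 162) in ZD7288 cells and 214 CPM (207 to 221) in vehicle cells, a ratio of 0.744 (0.716 to 0.773). Cdkn3 UMIs were found in 80.7% of ZD7288 cells and 90.2% of vehicle cells, and at 2000 UMIs per cell in 25.0% (23.4 to 26.6) against 35.6% (32.1 to 39.2).

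**Figure D1:**
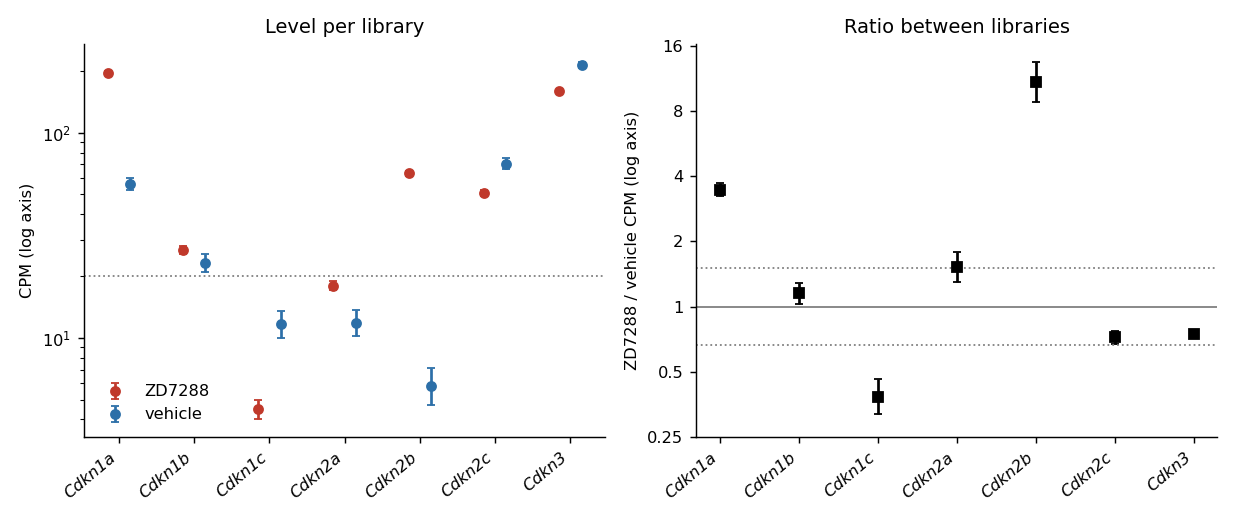
Left, CPM of each inhibitor gene in the ZD7288 library (red) and the vehicle library (blue) on a log axis, with exact 95% Poisson intervals and a dotted line at 20 CPM. Right, the ratio of ZD7288 to vehicle on a log axis with exact 95% intervals and dotted lines at 1.5-fold; Cdkn2b stands at 10.9, Cdkn1a at 3.47 and Cdkn1c at 0.384.

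**Figure D2:**
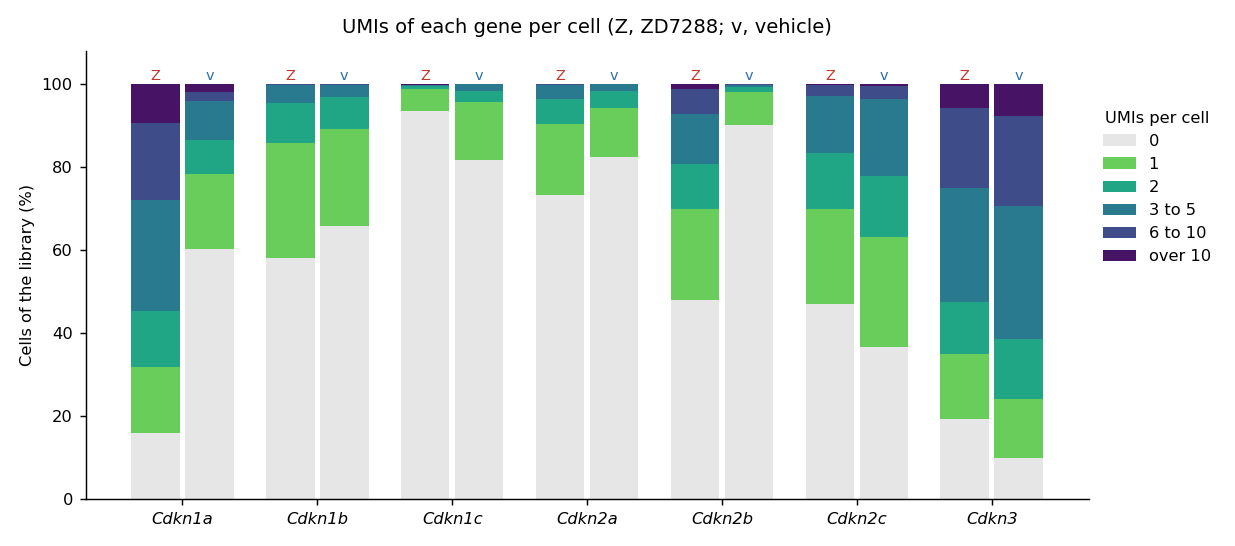
Share of cells of each library (percent) by the number of UMIs of each gene, with the ZD7288 library (Z) left of the vehicle library (v). Cells without a UMI made up 47.9% of ZD7288 and 90.3% of vehicle cells for Cdkn2b, and 16.0% of ZD7288 and 60.2% of vehicle cells for Cdkn1a.

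The make-up of each family differed between the libraries. Summed over Cip/Kip genes the level was 227 CPM in ZD7288 cells and 91.3 CPM in vehicle cells, a ratio of 2.49 (2.35 to 2.63), and Cdkn1a supplied 86.3% of these UMIs in ZD7288 cells and 61.8% in vehicle cells. Over the 3 INK4 genes found the sum was 132 CPM in ZD7288 cells and 88.2 CPM in vehicle cells, a ratio of 1.5 (1.42 to 1.59). Within it the leading gene differed: Cdkn2b supplied 47.9% of INK4 UMIs in ZD7288 cells against 6.61% in vehicle cells, and Cdkn2c supplied 38.5% in ZD7288 cells against 80.0% in vehicle cells. At 2000 UMIs per cell, at least 1 UMI of a Cip/Kip or INK4 gene was seen in 47.4% (45.5 to 49.2) of ZD7288 cells and 26.4% (23.2 to 29.8) of vehicle cells.

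Promoters are shown for the genes that lead the results, Cdkn1a and Cdkn2b on the higher side and Cdkn3 for its relation to mitotic transcripts. RefSeq promoter windows of build GRCr8 were used, in which 7 of the 8 listed genes had an entry, and the part before the gene's outermost annotated start is printed 5′ to 3′ in the direction of the gene. Motifs were searched on both strands. Capitals mark the p53 decamer in Cdkn1a (chr20:7150682-7150819, plus strand), the CRE core TGACG, the GC box GGGCGG and the SMAD motif CAGAC in Cdkn2b (chr5:109134907-109135105, minus strand), and the CCAAT box and the CHR motif TTTGAA in Cdkn3 (chr15:22502136-22502298, plus strand).
Cdkn1a: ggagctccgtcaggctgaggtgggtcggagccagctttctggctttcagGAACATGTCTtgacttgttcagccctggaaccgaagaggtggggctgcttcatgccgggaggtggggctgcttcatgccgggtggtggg
Cdkn2b: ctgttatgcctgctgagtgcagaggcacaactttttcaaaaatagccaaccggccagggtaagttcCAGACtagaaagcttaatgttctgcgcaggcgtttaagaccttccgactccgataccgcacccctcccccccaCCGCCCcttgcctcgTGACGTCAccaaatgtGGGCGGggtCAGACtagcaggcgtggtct
Cdkn3: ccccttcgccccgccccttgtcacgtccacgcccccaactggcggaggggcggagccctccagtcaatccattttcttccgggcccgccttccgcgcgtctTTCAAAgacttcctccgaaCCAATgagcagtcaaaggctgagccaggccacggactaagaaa
The printed Cdkn2b stretch holds a CRE core on each strand in 1 overlapping palindrome, besides 2 GC boxes, 2 SMAD motifs and, not capitalised, 1 CHR motif. The Cdkn1a stretch also holds 1 CRE core and the Cdkn3 stretch 2 GC boxes, not capitalised; the Cdkn1a and Cdkn2b stretches each hold 1 antioxidant response element (TGACNNNGC, in 10.2% of promoters), and the CHR motif of Cdkn3 is read on the opposite strand. The CHR motif is known from promoters of genes that peak in G2 and mitosis, the CRE core binds CREB and ATF proteins, and the SMAD motif binds the effectors of TGF-beta signalling. Among 27457 promoters, the 250 bases before the start held a p53 decamer in 6.56%, a CHR motif in 16.0%, a CCAAT box in 34.3%, a GC box in 32.4%, a SMAD motif in 42.8% and a CRE core in 19.0%. The capitals show motifs picked for each gene, and none was particular to it. In the 250 bases, Cdkn2c and Cdkn2d also held a p53 decamer, and Cdkn1b, Cdkn2c and Cdkn2d a SMAD motif. Cdkn1b and Cdkn3 also held a CRE core, Cdkn1b, Cdkn2a, Cdkn2c and Cdkn2d a GC box, and Cdkn1b a CCAAT box. Matches of letters are a description of these windows and do not show binding.

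To set the inhibitors beside the cell cycle, UMIs of 43 S phase genes and 51 G2/M genes, none of them an inhibitor gene, were counted in each cell thinned to 2000 UMIs. G2/M-rich cells had at least 20 G2/M UMIs, the upper quartile of vehicle cells; S-rich cells were the others with at least 6 S phase UMIs, the upper quartile again; low cells were below the vehicle medians of both lists (4 and 13 UMIs); the rest lay between. These classes are ranges of a score and not cell types, and 7.24% of ZD7288 cells and 9.67% of vehicle cells lay within 1 UMI of the G2/M limit, as did 25.2% and 27.8% for the S phase limit. Low cells made up 24.9% (23.3 to 26.5) of ZD7288 cells and 14.4% (11.9 to 17.1) of vehicle cells. G2/M-rich cells made up 22.1% (20.6 to 23.6) of ZD7288 cells and 25.1% (22.0 to 28.5) of vehicle cells. Even within the low class mean G2/M UMIs differed, at 5.27 in 736 ZD7288 cells and 7.16 in 104 vehicle cells. Median depth was greatest in G2/M-rich cells, at 29077 and 21805 UMIs in G2/M-rich and low ZD7288 cells and 19806 and 15995 UMIs in G2/M-rich and low vehicle cells.

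Within each library Cdkn2c and Cdkn3 were higher in cells rich in mitotic transcripts, and Cdkn1a was highest in low cells. In ZD7288 cells 3 of the 7 genes were at least 1.5-fold higher in G2/M-rich than in low cells (Cdkn1b, Cdkn2c and Cdkn3) and 1 lower (Cdkn1c). Over the measured genes outside both lists these shares were 5.62% and 1.66%. Such shares cover genes of at least 20 CPM in the higher library, a floor that Cdkn1c and Cdkn2a did not reach. Cdkn2b reached it only in the ZD7288 library. At 5.83 CPM in the vehicle library it had 24, 17 and 18 UMIs in G2/M-rich, S-rich and low vehicle cells. Its ratio of G2/M-rich over low vehicle cells was 0.652 (0.339 to 1.28), an interval that includes parity. Cdkn1c also rested on few cells, 10 ZD7288 cells holding 34.2% of its UMIs. At equal depth 0.767% of G2/M-rich, 0.912% of S-rich and 0.815% of low ZD7288 cells had a Cdkn1c UMI, with overlapping intervals. Its UMIs at that depth stayed lower, at log2 ratios over low cells of -1.09 in G2/M-rich and -0.84 in S-rich cells. A cell cycle relation of Cdkn1c was thus not settled. In vehicle cells 2 genes were higher (Cdkn1b and Cdkn2c) and 2 lower (Cdkn1a and Cdkn2b), against 8.21% and 1.01% of genes. Between S-rich and low cells, 1 gene was higher (Cdkn2c) and 2 lower (Cdkn1c and Cdkn2b) in ZD7288 cells, against 5.07% and 1.03% of genes, and 1 was higher (Cdkn2c) and 3 lower (Cdkn1a, Cdkn2a and Cdkn2b) in vehicle cells, against 4.21% and 1.05%. The counts in vehicle cells rested on 104 low cells and changed with the random draw of the thinning: with another draw 1 gene in place of 2 was lower in G2/M-rich vehicle cells, and 0 were higher and 0 lower in S-rich vehicle cells.

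Cdkn2c showed the steepest relation to mitotic transcripts. In ZD7288 cells it stood at 18.0 CPM (16.0 to 20.2) in low, 51.1 CPM (48.1 to 54.3) in S-rich, 47.6 CPM (44.4 to 50.9) in between and 83.1 CPM (79.0 to 87.4) in G2/M-rich cells, so that G2/M-rich cells were 4.62-fold above low cells (4.08 to 5.25). In vehicle cells the levels were 42.1 CPM (33.7 to 52.0), 69.1 CPM (61.6 to 77.3), 67.8 CPM (60.7 to 75.4) and 89.1 CPM (80.3 to 98.7) in the same order, a ratio of 2.12 (1.67 to 2.71). ZD7288 over vehicle was 0.932 (0.832 to 1.05) in G2/M-rich cells, 0.740 (0.651 to 0.842) in S-rich cells and 0.427 (0.335 to 0.549) in low cells. This order was not seen in thinned member counts, where the log2 ratio was 0.16 in G2/M-rich, -0.26 in S-rich and -0.07 in low cells; there 3.26% of ZD7288 and 3.85% (1.06 to 9.56) of the 104 vehicle low cells had a Cdkn2c UMI. The genes whose levels varied most like it over 2956 ZD7288 cells were Top2a (Pearson r 0.43, and 0.37 over 724 vehicle cells), Ube2c (0.42 and 0.32) and Smc4 (0.41 and 0.26), which act in chromosome segregation and mitotic protein turnover. These 3 are members of the G2/M list, and cells share depth and library, so the values are a description.

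Cdkn3 followed mitotic transcripts in a flatter way and was lower in the ZD7288 library in all 4 classes. G2/M-rich cells had 217 CPM (210 to 224) in the ZD7288 library and 265 CPM (249 to 281) in the vehicle library. Low cells had 122 CPM (117 to 128) in the ZD7288 library and 183 CPM (165 to 202) in the vehicle library. G2/M-rich over low was 1.77 (1.68 to 1.87) in ZD7288 cells and 1.45 (1.29 to 1.63) in vehicle cells. Its closest gene was Pttg1, the gene for securin, which keeps sister chromatids from separating before anaphase, with r of 0.56 in ZD7288 and 0.41 in vehicle cells. The next, Hmgn2 and Hnrnpa1, had r of 0.44 and 0.42 in ZD7288 cells and 0.21 and 0.01 in vehicle cells. Cdkn1b also was higher in G2/M-rich cells, with 34.7 CPM (32.1 to 37.5) in ZD7288 and 34.5 CPM (29.1 to 40.6) in vehicle, than in low cells, which had 21.7 CPM (19.5 to 24.0) in ZD7288 and 17.2 CPM (11.9 to 23.9) in vehicle. No gene reached r of 0.2 with Cdkn1b or with Cdkn1c in ZD7288 cells.

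Cdkn2b behaved differently again. In ZD7288 cells its level was lowest where S phase transcripts were most abundant: over 4 bins from few to many S phase UMIs, cut at the vehicle quartiles, it stood at 88.9 CPM (83.9 to 94.1), 74.1 CPM (70.3 to 78.0), 62.6 CPM (58.8 to 66.5) and 40.5 CPM (38.0 to 43.1). Along G2/M UMIs it did not run one way, with 75.4 CPM (71.8 to 79.2) in the lowest bin, 47.3 CPM (44.1 to 50.7) in the next, 54.9 CPM (51.4 to 58.6) in the third and 71.2 CPM (67.4 to 75.1) in the highest. S-rich over low was 0.437 (0.401 to 0.477) in ZD7288 cells. In vehicle cells the 4 S phase bins had 8.10, 5.39, 6.76 and 4.68 CPM, on 91 UMIs in the whole library, with intervals that overlapped. ZD7288 over vehicle was 12.4 (8.28 to 19.4) in G2/M-rich, 10.2 (6.32 to 17.6) in S-rich, 9.18 (6.46 to 13.5) in between and 10.0 (6.33 to 17.0) in low cells. Cdkn2b was above vehicle in all 4 classes. In thinned member counts the log2 ratio was 2.82 in G2/M-rich, 3.07 in S-rich and 1.70 in low cells, against 3.63, 3.35 and 3.33 in all UMIs, so the order of the classes was not settled.

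Cdkn1a was highest in the low class of either library, and higher in the ZD7288 library in all 4 classes. Low cells had 251 CPM (244 to 259) in the ZD7288 library and 109 CPM (94.9 to 124) in the vehicle library, a ratio of 2.31 (2.02 to 2.65). G2/M-rich cells had 181 CPM (175 to 188) in the ZD7288 library and 58.0 CPM (50.9 to 65.8) in the vehicle library, a ratio of 3.13 (2.74 to 3.58). Between cells had 179 CPM (172 to 185) and 36.8 CPM (31.7 to 42.6), a ratio of 4.85 (4.17 to 5.67). The order of these ratios changed with the settings: log2 ratios were 2.02 in G2/M-rich, 1.75 in between and 1.79 in low cells with another random draw, and 2.04, 1.44 and 1.90 with 10-gene core lists, against 1.65, 2.28 and 1.21. G2/M-rich over low was 0.722 (0.690 to 0.756) in ZD7288 cells and 0.533 (0.442 to 0.642) in vehicle cells. In vehicle cells Cdkn1a did not run one way over the bins, with 87.7, 47.9, 42.0 and 61.8 CPM from few to many S phase UMIs, and r with the S phase list was -0.0015. With another draw its log2 ratio of S-rich over low vehicle cells was -0.14, against -1.04.

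Cdkn1c and Cdkn2a rested on few UMIs per class. Over all UMIs Cdkn1c was lower in the ZD7288 library in all 4 classes, with ratios from 0.228 (0.159 to 0.327) in G2/M-rich to 0.593 (0.383 to 0.953) in low cells. In thinned member counts the S-rich class went the other way. There 0.912% (0.395 to 1.79) of ZD7288 and 0.469% (0.0119 to 2.59) of vehicle S-rich cells had a Cdkn1c UMI, with overlapping intervals. For Cdkn2a the ratio was 1.24 (0.955 to 1.62) in G2/M-rich, 1.80 (1.31 to 2.53) in S-rich, 2.07 (1.49 to 2.95) in between and 1.07 (0.738 to 1.59) in low cells. By the same rule 2 of the 7 genes, Cdkn1a and Cdkn2b, were at least 1.5-fold higher in each of the 4 classes, where 5.49% of measured genes were. Of the 5 measured members 0 were at least 1.5-fold lower in each, where 2.72% of measured genes were, and Cdkn1c, below the floor of 20 CPM, was. Weighting the classes of the ZD7288 library by their share of UMIs in the vehicle library moved no ratio far: Cdkn2b stood at 10.4 in place of 10.8, Cdkn1a at 3.35 in place of 3.47, Cdkn2c at 0.769 in place of 0.722 and Cdkn3 at 0.770 in place of 0.745, all in cells of at least 2000 UMIs.

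**Figure D3:**
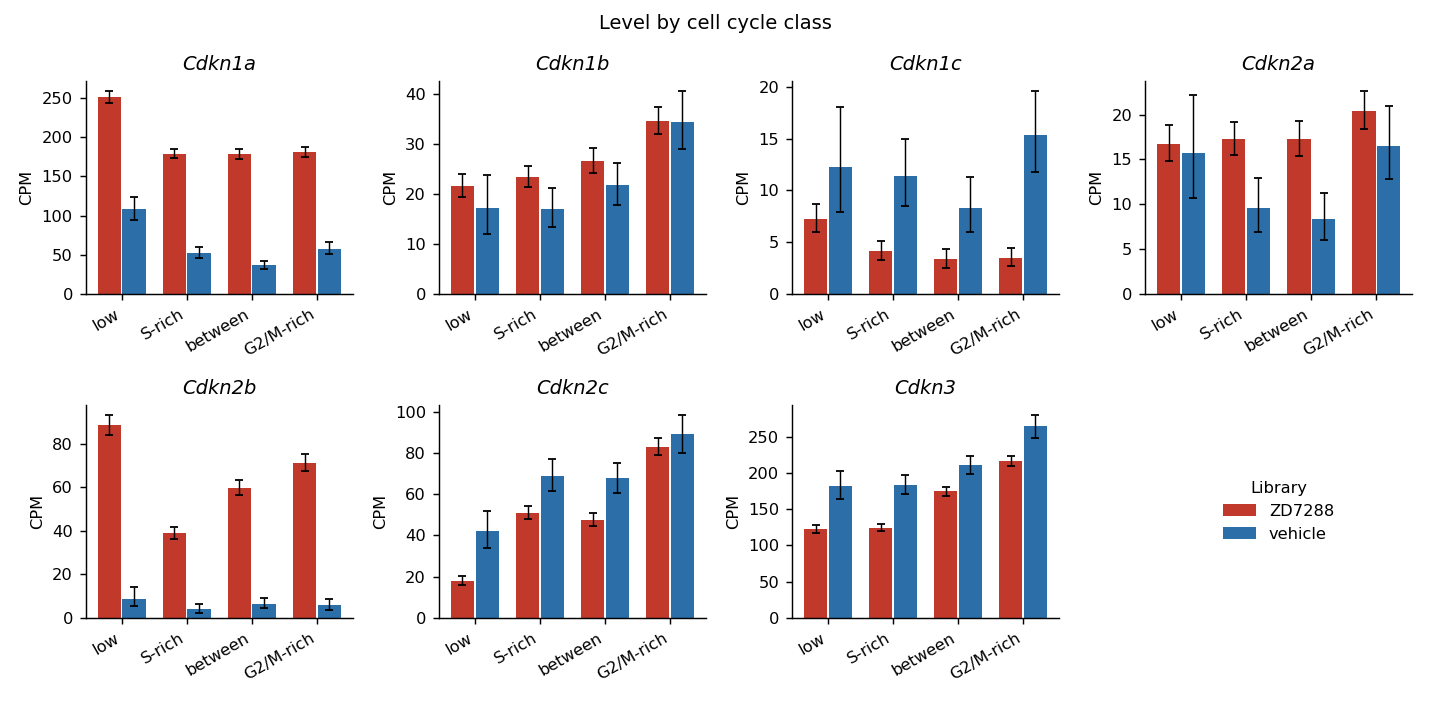
CPM of each gene by cell cycle class in the ZD7288 library (red) and the vehicle library (blue), with exact 95% Poisson intervals; each panel has its own axis from 0. Cdkn2c in ZD7288 cells runs from 18.0 CPM in low to 83.1 CPM in G2/M-rich cells, and Cdkn2b stands far above vehicle in each class.

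**Figure D4:**
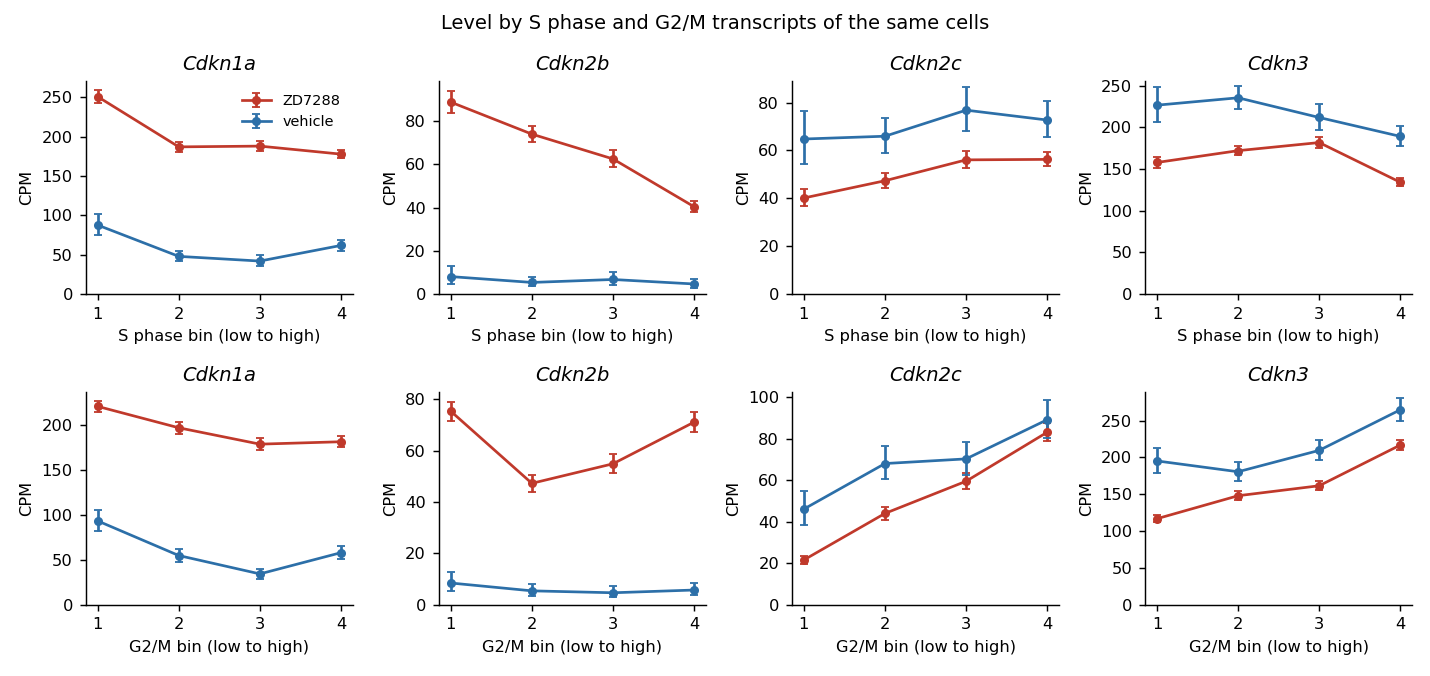
CPM of Cdkn1a, Cdkn2b, Cdkn2c and Cdkn3 over 4 bins of S phase UMIs (top row) and of G2/M UMIs (bottom row) in the same cells, cut at the vehicle quartiles, with exact 95% Poisson intervals; red is ZD7288, blue vehicle. Cdkn2b in ZD7288 cells declines over the S phase bins to 40.5 CPM, and Cdkn2c and Cdkn3 climb over the G2/M bins in ZD7288 cells; vehicle Cdkn3 has 195, 180, 209 and 265 CPM.

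The genes most like Cdkn1a over ZD7288 cells were Ccng1 (r 0.39, and 0.47 over vehicle cells), Phlda3 (0.34 and 0.45) and Rps27l (0.28 and 0.38), each a known p53 target. Their ratios of ZD7288 to vehicle were 1.15, 0.988 and 0.905, beside 3.47 for Cdkn1a. Some p53 targets that varied less closely with Cdkn1a did differ between libraries. Aen had r of 0.21 in ZD7288 and 0.25 in vehicle cells, Pmaip1 0.15 and 0.18, and Gadd45a 0.14 and 0.12, with ratios of 1.80, 3.09 and 3.99. Others did not: Bax had r of 0.15 and 0.17 and a ratio of 1.01, and Btg2 0.06 and 0.14 and a ratio of 0.992. Cells were then divided by their summed UMIs of Ccng1 and Phlda3 at 2000 UMIs per cell, a split added after the levels were seen and made with genes picked for their likeness to Cdkn1a. With 0 such UMIs, Cdkn1a stood at 154 CPM (150 to 157) in 2004 ZD7288 cells and 33.7 CPM (30.4 to 37.3) in 520 vehicle cells, a ratio of 4.56 (4.11 to 5.07). With 2 or more it stood at 412 CPM (397 to 427) in 267 ZD7288 cells and 254 CPM (227 to 283) in 64 vehicle cells, a ratio of 1.62 (1.45 to 1.82). Vehicle cells with 2 or more of these UMIs thus had more Cdkn1a than ZD7288 cells with 0, and the libraries lay nearest each other where these UMIs were most abundant.

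Cdkn2a followed the same split, at 34.7 CPM (30.4 to 39.3) in ZD7288 cells with 2 or more of these UMIs and 14.0 CPM (12.9 to 15.0) in those with 0. The matching vehicle cells had 29.8 CPM (21.2 to 40.7) with 2 or more and 8.52 CPM (6.89 to 10.4) with 0. Ccng1 was also the gene most like Cdkn2a in ZD7288 cells (r 0.26, and 0.21 in vehicle cells), followed by Gas6 and Cdkn2b, both at 0.21. Cdkn2b varied most like Gas6, a ligand of the TAM receptor kinases (r 0.36, and 0.22 in vehicle cells), Gadd45a, a stress-induced growth arrest gene (0.31 and 0.11), and Nrgn, which encodes neurogranin (0.26 and 0.07). Gas6 and Gadd45a were also higher in the ZD7288 library, at 2.81-fold and 3.99-fold, and Nrgn was at 1.45-fold.

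**Figure D5:**
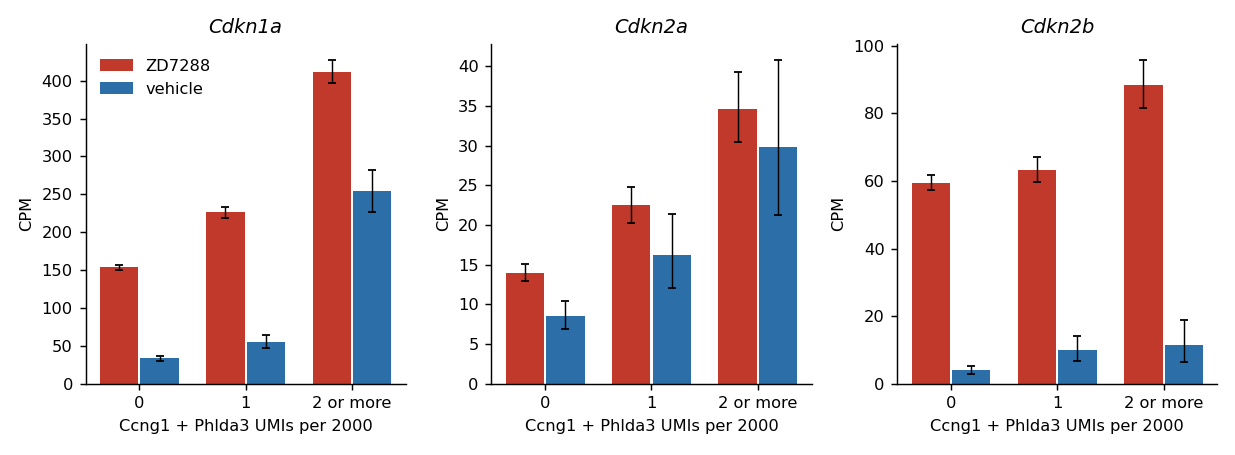
CPM of Cdkn1a, Cdkn2a and Cdkn2b in cells with 0, 1 and 2 or more UMIs of Ccng1 and Phlda3 per 2000, in the ZD7288 library (red) and the vehicle library (blue), with exact 95% Poisson intervals. For Cdkn1a the bars of the libraries lie 4.56-fold apart at 0 and 1.62-fold apart at 2 or more UMIs. Both genes of the split were picked for their likeness to Cdkn1a, and the ratio at 2 or more changed with thinning depth.

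Pairs of inhibitors in the same cells were compared at 2000 UMIs per cell. Of 42 ordered pairs, the interval of the ratio lay above 1 for 5 in ZD7288 and 4 in vehicle cells, and below 1 for 3 in ZD7288 and 0 in vehicle cells. Each pair was taken in both orders, no share over other gene pairs was computed, and vehicle calls rested on as few as 5 UMIs. Among ZD7288 cells Cdkn2b stood at 69.9 CPM in the 880 cells with a Cdkn1a UMI and 54.2 CPM in the 2076 without, a ratio of 1.29 (1.03 to 1.61). Cdkn2a stood at 25.6 CPM and 14.7 CPM in the same cells, a ratio of 1.74 (1.16 to 2.60), and in vehicle cells at 53.1 CPM and 14.4 CPM on 7 and 19 UMIs, a ratio of 3.68 (1.31 to 9.13). Between ZD7288 cells with and without a Cdkn2a UMI, Cdkn2b had 104 CPM and 57.3 CPM, a ratio of 1.82 (1.11 to 2.82); the reverse split, Cdkn2a by Cdkn2b, gave 1.65 (0.920 to 2.79). Cdkn1c was lower in ZD7288 cells with a Cdkn1a UMI, at 0.175 (0.0202 to 0.696) on 2 and 27 UMIs. Cdkn3 was lower too, with 125 CPM in ZD7288 cells with a Cdkn2b UMI and 159 CPM in those without, a ratio of 0.787 (0.615 to 0.994).

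The lists of partners and regulators are set beside the 10.1% of all measured genes that were higher and the 5.2% that were lower. The lists were chosen with earlier results of these data known. A larger share in a list is therefore a description and no evidence that the list as a whole responded. Of 4 measured genes for cyclin D and CDK4/6, which INK4 proteins target, 1 was higher, the cyclin gene Ccnd2 at 104 CPM in ZD7288 cells and 41.8 CPM in vehicle cells (ratio 2.49, 2.30 to 2.70), and 0 were lower. Cdk6 was below the floor, at 2.32 CPM in ZD7288 cells and 0.641 CPM in vehicle cells. The list had a median log2 ratio of -0.03, beside 0.09 over all measured genes. Of 9 measured genes for cyclins E, A and B, CDK1, CDK2 and their activators, none reached 1.5-fold in either direction, the most abundant being Cdk1 (ratio 1.27, 1.22 to 1.33) and Ccna2 (1.05, 1.00 to 1.10), with a list median of 0.03. Of 18 matched genes of RB, E2F and DREAM complexes, which carry out the arrest that inhibitors impose, 6 were measured. None of these passed, with a median of -0.23. Tfdp1 had a ratio of 0.974 (0.938 to 1.01) and E2f4 0.872 (0.823 to 0.925). The RB family genes Rb1, Rbl1 and Rbl2 were below the floor of 20 CPM and not among the 6. Their ratios were 1.63 (0.741 to 4.26), 1.40 (0.715 to 3.05) and 0.487 (0.354 to 0.677), so the list does not show that RB genes were unchanged. Of 9 measured genes for the turnover of p21 and p27 proteins none passed, with a median of 0.32; Skp1, a ubiquitin ligase subunit, had a ratio of 1.25 (1.22 to 1.28) and Cks1b, a cofactor in p27 recognition, 0.863 (0.839 to 0.888).

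Known regulators of the INK4 locus and of Cdkn1a, in lists chosen in the same way, were mixed. Of 10 measured polycomb genes and other repressors of the INK4 locus, Id1 was higher at 2.23-fold (2.11 to 2.37) and the polycomb gene Cbx2 was 1.59-fold lower (1.40 to 1.81), with a list median of 0.10. In the list of TGF-beta, SMAD and MYC-MIZ1 genes 6 of 19 matched genes were measured. Of these 1 was higher, the SMAD corepressor gene Tgif1 at 2.20-fold (2.00 to 2.42), and 0 lower, with a median of 0.29. All listed TGF-beta ligand and receptor genes were below the floor of 20 CPM, and their ratios went both ways. The p53 pathway list had a median of 0.50, and of its 12 measured genes 5 passed on the higher side and 0 on the lower. They were led by Sesn2, a sestrin, at 6.17-fold (5.50 to 6.95), Gadd45a at 3.99-fold (3.76 to 4.23), the pro-apoptotic gene Pmaip1 at 3.09-fold (2.81 to 3.40) and the kinase gene Plk3 at 2.14-fold (1.86 to 2.48), with the nuclease gene Aen at 1.80-fold, named after its value was seen. Sesn2 and Pmaip1 are also known targets of ATF4. Among 8 measured genes for other factors that bind the Cdkn1a promoter 4 were higher, Cebpb at 5.43-fold (4.84 to 6.12), Ddit3 at 3.13-fold (2.76 to 3.57), Atf4 at 2.25-fold (2.15 to 2.35) and Jun at 1.94-fold (1.75 to 2.16), and 1 lower, Sp1, named after its value was seen, at a ratio of 0.608 (0.534 to 0.693). Over ZD7288 cells r with Cdkn1a was 0.06 for Cebpb, 0.07 for Ddit3, 0.01 for Atf4 and 0.04 for Jun, and among the p53 genes past 1.5-fold 0.08 for Sesn2, 0.14 for Gadd45a, 0.15 for Pmaip1, 0.06 for Plk3 and 0.21 for Aen.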

How the data were processed

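Single-cell RNA was measured in 1 ZD7288 and 1 vehicle library. The authors deposited raw UMI counts per gene and barcode for both libraries in 1 matrix; they were made with Cell Ranger, per the submitters' processing notes, whose version reads 3.0.2 per the file headers. No source used here names the build or annotation. Barcodes were kept with at least 1000 UMIs, 500 genes and at most 10% mitochondrial UMIs, which left 3135 of 3849 in the ZD7288 library (73681950 UMIs) and 732 of 842 in the vehicle library (15611454 UMIs). UMIs were summed per library or class and given as CPM with exact Poisson 95% intervals, and ratios with exact Clopper-Pearson intervals, as were shares of cells; all cover counting error only. With 1 library a group nothing was tested, and a fold of 1.5 served as the size rule. Cells were thinned to 2000 UMIs (2956 ZD7288 and 724 vehicle cells; 179 and 8 shallower cells left out) for shares and classes. Doublet scores marked 97 ZD7288 and 5 vehicle cells, which were kept and left out in an alternative. The members and gene lists were chosen with earlier results of these data known. Named genes were all members, up to 4 genes per list with the largest change past 1.5-fold (the 2 most abundant where none passed), and up to 3 genes per member with the highest Pearson r of log(1 + UMIs per 10000) over ZD7288 cells, where r was at least 0.2. The ratio and class steps were tested on simulated data. Scaling, cell filters, floors, thinning depth, class limits, doublets and cell weights were varied. Python 3.11.15, numpy 2.4.6, scipy 1.17.1, pandas 2.3.3, scikit-learn 1.9.0 and matplotlib 3.10.9 were used.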

Additional observations from a re-analysis of the deposited data

How the results depend on the processing

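No paired analysis was possible because each condition was 1 library and nothing was tested. Cdkn1a, Cdkn1b, Cdkn1c, Cdkn2b, Cdkn2c and Cdkn3 kept their direction between libraries under every setting tried, with ratios of 3.15 to 3.53, 1.08 to 1.25, 0.276 to 0.534, 6.09 to 11.5, 0.651 to 0.850 and 0.684 to 0.754. For Cdkn2a the ratio spanned 0.999 to 2.51, its log2 ratio was -0.0021 at 2000 UMIs per cell, and it did not reach 1.5-fold there, under scaling to the median gene, with each cell weighing the same, without high doublet scores, or with totals that left out mitochondrial and ribosomal protein genes. At 5000 UMIs per cell, a setting chosen after seeing the data, Cdkn2c passed 1.5-fold, so that 2 members in place of 1 were lower and 1 measured member in place of 0. The totals without mitochondrial and ribosomal protein genes gave 426 genes lower in place of 251. With 2-fold in place of 1.5-fold, 139 genes were higher and 61 lower; from 5 CPM, 810 were higher and 612 lower; with no floor, 1828 were higher and 2545 lower, and under both of these floors 1 measured member was lower in place of 0. In the pathway lists 2 genes were lower, against 1 with each cell weighing the same and under a stricter cell filter, and 4 at 2000 UMIs per cell.

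The vehicle classes were the least stable. Members lower in G2/M-rich than in low vehicle cells numbered 2, against 1 with another random draw and with limits set over both libraries; those higher numbered 2, against 1 with 10-gene core lists and 4 with thinned member counts. In S-rich over low vehicle cells 1 member was higher, against 0 with another draw and with the core lists, and 3 were lower, against 0 with another draw and 1 with the core lists. The log2 ratio of Cdkn2b in G2/M-rich over low vehicle cells turned to 0.057 with another draw. Thinned member counts turned that of Cdkn2a in S-rich over low vehicle cells to 0.14, those of ZD7288 over vehicle in S-rich cells to 0.96 for Cdkn1c and -0.30 for Cdkn2a, and left 0 members lower in each class in place of 1. At 5000 UMIs per cell, 1 member in place of 2 was lower in the top S phase bin of ZD7288 cells, 0 in place of 1 higher in that of vehicle cells, and 2 in place of 1 lower in the top G2/M bin of vehicle cells; 9 in place of 5 ordered pairs of members stood above 1 together in ZD7288 cells. In the split by Ccng1 and Phlda3, an alternative chosen after seeing the data, the log2 ratio of Cdkn1a at 2 or more UMIs was 1.21 at 5000 UMIs per cell, against 0.70. The cause of these changes was not tested. Of 174 counts recomputed, 146 stayed within 1.5 times.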
